A study of Drosophila melanogaster with 21 samples.

Results

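Heads of Crtc knockout flies that had been fasted for 16 hours were compared with heads of Crtc knockout flies that were fed. Crtc encodes the fly's CREB-regulated transcription coactivator, and the labels give the genotype as a Crtc knockout without naming an allele. The fasted group held 2 libraries and the fed group 3, out of 21 libraries in the series, and every gene that the authors listed for this comparison was included. Control heads from w1118 flies, a white-eyed laboratory strain, were used where the knockout response is set against another (2 fasted and 3 fed libraries). Flies of all these groups were 3 to 5 days old and kept on standard medium, and polyadenylated RNA of whole heads was sequenced. The labels give no sex, and whether libraries stem from separate flies is not stated, so p-values here reflect spread among these libraries alone, and that spread may be technical.

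A fasting fly draws on triglyceride that the fat body holds in lipid droplets. Lipases free the fatty acids, which are oxidised in mitochondria and peroxisomes, while adipokinetic hormone, the insect counterpart of glucagon, signals that fuel is short. Lower insulin signalling lets the transcription factor FOXO act, and Crtc, once freed from phosphorylation by salt-inducible kinases, moves to the nucleus and works with CREB. A head holds brain, eye, muscle, cuticle and its own fat body, so a level is an average over tissues, and fewer cells of a type cannot be told apart from less RNA per cell.

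The authors' table lists 17559 genes, of which 4215 had a base mean of 0 and 10037 received an adjusted p and are called tested below. The base mean is the mean normalized count over the 5 libraries, and it summed to 3572597. No value per library is given in the tables, so levels of the 2 feeding states were derived from the base mean and the fold, and no SD can be attached to them. Crtc itself had a base mean of 0.36 per the authors' deposited table for knockout heads, against 339.7 per the authors' deposited one for control heads. The rhodopsin gene ninaE had the highest base mean of the marker genes, 138886 per the authors' deposited table, and none of the 18 neuronal markers matched was at 0. Of 34 gut protease and lysozyme genes, 17 were at 0 and the highest base mean was 6.69 for LysX per the authors' deposited table. Of 71 male reproductive genes, 37 were at 0, and of 9 female germline and eggshell genes, 3 were at 0. The labels list the third fed library with another set of samples than the other 2, and that set has no fasted library. Set and feeding state are therefore partly mixed in this comparison and cannot be told apart without values per library.

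Many more transcripts rose than fell in fasted knockout heads. At an adjusted p under 0.05 in the authors' deposited table, 327 genes were called, or 3.26% of those tested. Of these, 277 rose, which is 2.76%, and 50 fell, which is 0.498%. The median log2 fold (fasted over fed) was 1.04 among genes that rose and -1.01 among genes that fell, against -0.02 over all genes tested, and 46.1% of the genes tested had a fold above 0. Rises were called mainly among well expressed genes: the share that rose was 0.911% at base means of 10 to 30 and 5.41% at base means of 1000 or more. The median standard error was 0.31 in the lower range and 0.195 in the higher one. A given fold was thus easier to call at high base means, and the part of this in the shares was not tested. The genes that fell had a median base mean of 78.67, against 287.1 for those that rose. A log2 fold of at least 1 was reached by 155 of the rises and 26 of the falls. When the authors' Wald scores were read against a t distribution with 3 degrees of freedom, in place of the normal one, 0 genes were called (320 had an unadjusted p under 0.05, and the smallest adjusted p was 0.495).

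**Figure D1:**
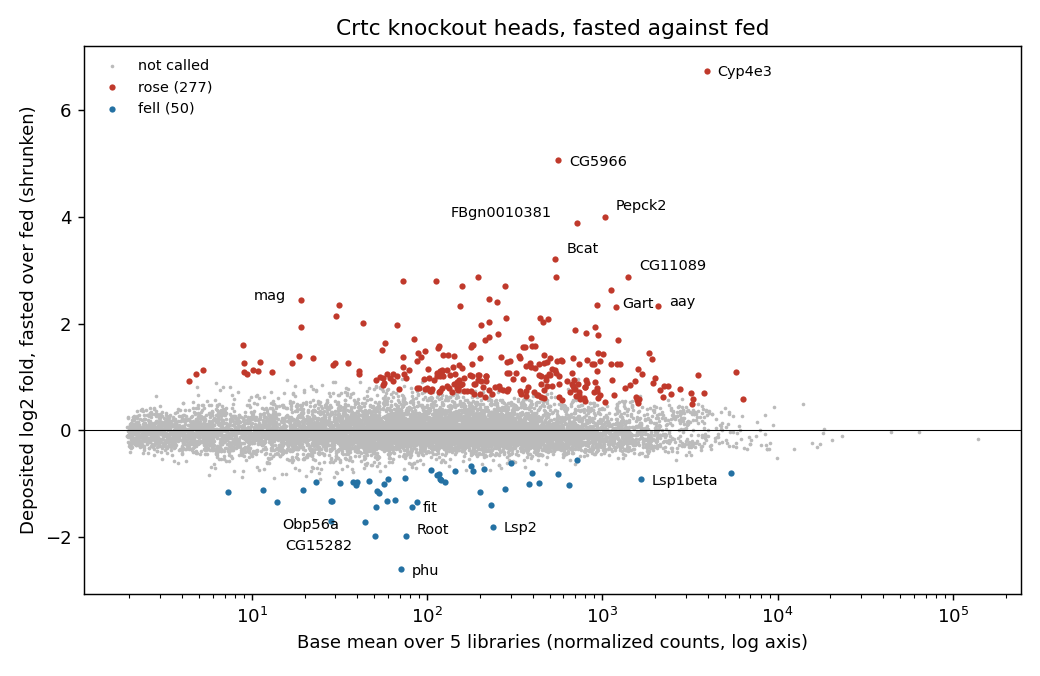
Log2 fold (fasted over fed, as deposited, vertical axis) against the base mean over 5 libraries in normalized counts (horizontal log axis) for the 10037 genes tested in Crtc knockout heads; red points rose, blue points fell and grey points were not called. The 277 rises reach a fold of 6.73 at Cyp4e3, while the 50 falls reach -2.60 at phu.

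The steepest rise was that of Cyp4e3, a cytochrome P450 gene of a family whose members hydroxylate fatty acids, on the minus strand of chromosome arm 2L between 9747839 and 9750071 (Ensembl annotation of BDGP6.54). Its implied level was 9784 normalized counts in fasted knockout heads and 54.6 in fed knockout heads. Base means of the 4 tables alone bound these levels to between 9730 and 9866 when fasted and to at most 90.3 when fed, so the ranges that the base means allow lay far apart without use of the fold. Per kilobase of exon, Cyp4e3 had rank 16 of 8415 genes in fasted knockout heads and rank 5993 in fed ones. Its fold was 6.73 ± 0.19 (standard error) per the authors' deposited table (adjusted p = 2.97e-271). CG5966, a gene of the pancreatic lipase family, had implied levels of 1364 in fasted and 21.1 in fed knockout heads, and its fold was 5.06 ± 0.23 per the authors' deposited table (adjusted p = 3.62e-103). Pepck2, which encodes a phosphoenolpyruvate carboxykinase, followed with 2410 in fasted and 116 in fed heads, and with a fold of 3.99 ± 0.18 per the authors' deposited table (adjusted p = 3.58e-105). FBgn0010381, an identifier for which no symbol was matched, had 1673 in fasted and 72.5 in fed heads. Its fold was 3.89 ± 0.22 per the authors' deposited table (adjusted p = 9.45e-67). Bcat, the branched-chain amino acid transaminase gene, had 1202 in fasted and 98.3 in fed heads.

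The other 10 of the 15 largest rises had folds of 2.45 to 2.87 per the authors' deposited table. They were Spn88Eb (a serpin), the purine synthesis genes CG11089 and Gart, CG10383, atk (a leucine-rich repeat protein), CG43402, Srr (serine racemase), GIIIspla2 (a secreted phospholipase), CG8654 and the lipase gene mag. The low end is shown by mag, with 45.1 in fasted and 1.69 in fed knockout heads, where the base means allow at most 1.91 when fed. The annotated mag and atk overlap on opposite strands, and whether the authors counted by strand is not given, so reads of either may count for the other.

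The largest fall was that of phu. The base means place it at no more than 6.72 normalized counts in fasted knockout heads and at 114 to 118 in fed ones, and its fold was -2.60 ± 0.30 per the authors' deposited table (adjusted p = 9.61e-16). Root, which encodes the ciliary rootlet protein, was at an implied 18.1 in fasted and 114 in fed heads. CG15282 was at 11.9 in fasted and 76.7 in fed heads, and both genes had folds of -1.97 per the authors' deposited table (adjusted p = 1.47e-10 for Root and 2.83e-10 for CG15282). Lsp2, a storage protein of the fat body, was at 78.2 in fasted and 342 in fed heads. The remaining 11 of the 15 largest falls lay between -1.71 and -1.31 per the authors' deposited table. Among them were the odorant-binding protein gene Obp56a, the multicopper oxidase Mco1, the satiety peptide gene fit, the matrix protein gene Ppn, the dehydrogenase gene Had2, the antimicrobial peptide gene CecA1, the neuropeptide gene CNMa, the insulin-like peptide gene Ilp5 and the blood cell marker Hml, as well as CG4962 and CG34165.

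**Figure D2:**
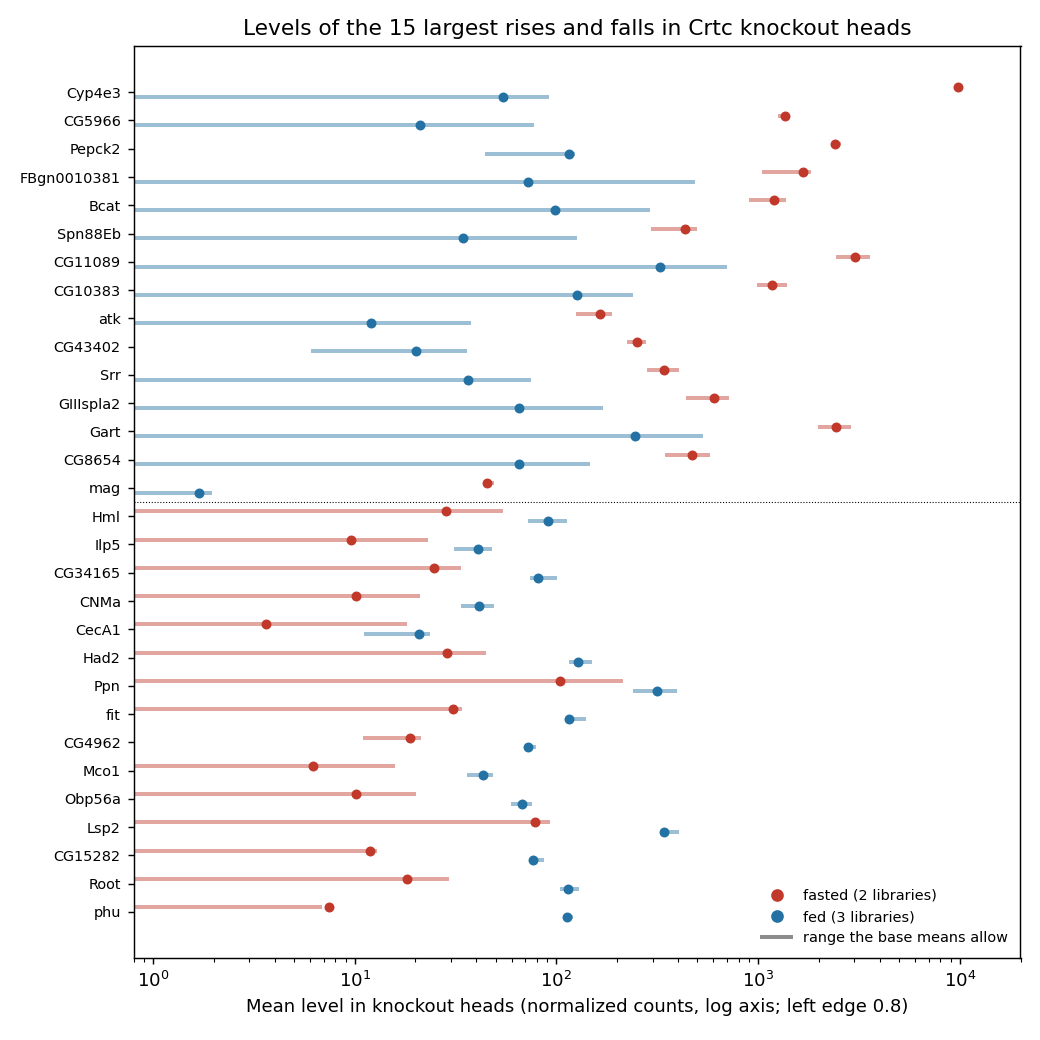
Implied mean levels in normalized counts (log axis, left edge at 0.8) of the 15 largest rises (above the dotted line) and the 15 largest falls (below it) in fasted (red, 2 libraries) and fed (blue, 3 libraries) Crtc knockout heads; points use the fold with the authors' shrinkage taken out, and bars give the range that the base means of the 4 tables allow. The bars of fasted and fed heads meet only for CecA1, and the points of phu lie just outside its bars.

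Lipid mobilisation genes rose together in fasted knockout heads. Of the 10 lipase, lipid droplet and adipokinetic hormone receptor genes tested, 6 rose, 0 fell and 4 were not called. Their median log2 fold was 1.02, against -0.02 over all genes tested, of which 2.76% rose. The main triglyceride lipase gene bmm (brummer) had implied levels of 852 in fasted and 171 in fed knockout heads, with a fold of 2.10 ± 0.18 per the authors' deposited table (adjusted p = 1.85e-27). Lsd-2, which coats lipid droplets, had 1920 in fasted and 753 in fed heads. AkhR, the receptor for adipokinetic hormone, had 323 in fasted and 145 in fed heads, a fold of 1.01 ± 0.21 per the authors' deposited table (adjusted p = 7.78e-05). The other droplet coat gene, Lsd-1, and the lipase gene Hsl were not called, with folds of 0.96 ± 0.31 and 0.21 ± 0.19 per the authors' deposited table (adjusted p = 0.0601 and 0.955).

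Fatty acid oxidation was the list with the most rises: 18 of 27 tested members rose, 1 fell and 8 were not called, with a median of 0.90. The rises ran along the pathway. The carnitine shuttle carries fatty acids into mitochondria, and its genes whd, colt and CPT2 had folds of 1.23 ± 0.18, 1.13 ± 0.23 and 1.11 ± 0.26 per the authors' deposited table (adjusted p = 4.24e-09, 0.000119 and 0.00102). Among the dehydrogenases that open each oxidation cycle, Mcad had 88.4 in fasted and 13.1 in fed knockout heads, a fold of 2.01 ± 0.28 per the authors' deposited table (adjusted p = 1.23e-10). The thiolase gene yip2, which closes the cycle, had 1724 in fasted and 366 in fed heads. Both subunits of the trifunctional enzyme rose, Mtpalpha by 1.35 ± 0.20 and Mtpbeta by 1.26 ± 0.23 per the authors' deposited table (adjusted p = 4.24e-09 and 2.88e-06). Peroxisomal members rose as well, with Acox57D-p, an acyl-CoA oxidase gene, at 323 in fasted and 90.7 in fed heads. Had2, named for a beta-hydroxy acid dehydrogenase, was the member that fell, to 28.6 in fasted heads against 127 in fed heads. In lipid synthesis, 4 of 17 tested members rose, 0 fell and the median was 0.27, beside 2.76% risen over all genes tested. The 4 were Dgat2, mdy, Agpat3 and Lpin, enzymes of glycerolipid assembly, at folds of 0.76 to 1.08 per the authors' deposited table, and the annotated Lpin overlaps kermit on the same strand. The fatty acid synthesis genes ACC and ATPCL were not called, at -0.45 ± 0.19 and -0.31 ± 0.23 per the authors' deposited table (adjusted p = 0.308 and 0.925).

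Among carbohydrate genes, calls came in gluconeogenesis and in starch and sugar digestion, with 1 in glycolysis and 0 in trehalose and glycogen metabolism, beside 2.76% risen over all genes tested. In gluconeogenesis, 2 of 5 tested members rose, Pepck2 and the fructose bisphosphatase gene fbp, which had 576 in fasted and 181 in fed knockout heads. In glycolysis, 1 of 14 rose, the lactate dehydrogenase gene Ldh, at 0.98 ± 0.28 per the authors' deposited table (adjusted p = 0.0206). None of 12 trehalose and glycogen genes was called, their folds running from -0.12 to 0.50, while 3 had an unadjusted p under 0.05. Of 7 amylase and maltase genes tested, which release glucose from starch and sugars, 3 rose: Mal-B2, Amy-d and Mal-A5. Mal-B2 had 1932 in fasted and 260 in fed heads, a fold of 2.34 ± 0.25 per the authors' deposited table (adjusted p = 1.47e-18). Amy-d and Amy-p, which was not called, are near-identical copies, so reads may be split between them in a way the tables do not show.

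Serine, folate and purine synthesis formed a connected run of rises, with gaps. All 3 serine synthesis genes rose. In pathway order, CG6287 (phosphoglycerate dehydrogenase) had 1699 in fasted and 764 in fed knockout heads, CG11899 (phosphoserine aminotransferase) had 658 and aay (phosphoserine phosphatase) had 4112 in fasted heads, against 162 for CG11899 and 721 for aay in fed heads. Their folds were 0.94 ± 0.24, 1.56 ± 0.26 and 2.33 ± 0.16 per the authors' deposited table (adjusted p = 0.00498, 5.64e-07 and 3.75e-42). Of 10 folate and glycine cleavage genes tested, 4 rose, beside 2.76% over all genes tested: Nmdmc, Shmt, CG8665 and CG6415. Shmt, which moves a carbon of serine onto folate, had 865 in fasted and 263 in fed heads. Nmdmc, a mitochondrial folate enzyme, had 517 in fasted and 70.7 in fed heads, and the annotated Rel gene, which overlaps it on the same strand, rose too, by 1.02 ± 0.18 per the authors' deposited table (adjusted p = 2.11e-06). The cytosolic folate enzyme gene pug was not called, at 0.39 ± 0.31 per the authors' deposited table (adjusted p = 0.936).

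In de novo purine synthesis, 4 of 10 tested genes rose, 0 fell and 6 were not called, beside 2.76% risen over all genes tested. Prat2, for the opening amidotransferase step, had 1471 in fasted and 477 in fed knockout heads. Gart, Paics and CG11089 had 2443, 2354 and 3020 in fasted heads, against 245, 489 and 325 in fed heads. Pfas and Adsl, whose enzymes act between steps of Gart, Paics and CG11089, were not called. Pfas was at 418 in fasted and 269 in fed heads, with a fold of 0.56 ± 0.21 per the authors' deposited table (adjusted p = 0.176), and Adsl was at 136 in fasted and 102 in fed heads, with a fold of 0.34 ± 0.24 per the authors' deposited table (adjusted p = 0.912). In control heads, where 2.19% of genes tested rose and 1.65% fell on fasting, Pfas rose by 3.16 ± 0.15 and Adsl by 1.72 ± 0.17 per the authors' deposited table for that genotype. The difference of the log2 folds, knockout minus control, was -2.60 ± 0.26 for Pfas (adjusted p = 3.26e-20 by a two-sided normal test) and -1.38 ± 0.30 for Adsl (adjusted p = 0.00118). This test of the difference called 0.696% of 8474 genes as higher and 0.106% as lower in the knockout response. Sardh was among the lower. It encodes sarcosine dehydrogenase and stood at 101 in fasted and 64.4 in fed knockout heads, with a difference of -1.42 ± 0.35 (adjusted p = 0.00891), which missed the threshold with the shrinkage taken out (-1.46, adjusted p = 0.232). For the risen Gart, Paics and CG11089 the differences were -0.31 ± 0.31, -0.42 ± 0.32 and -0.27 ± 0.25, none past the threshold. Of 10 methionine cycle genes, 2 rose, Ahcy and CG10621, and none of 3 pyrimidine synthesis genes was called, with folds of -0.41 to 0.10 and 0 at an unadjusted p under 0.05.

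**Figure D3:**
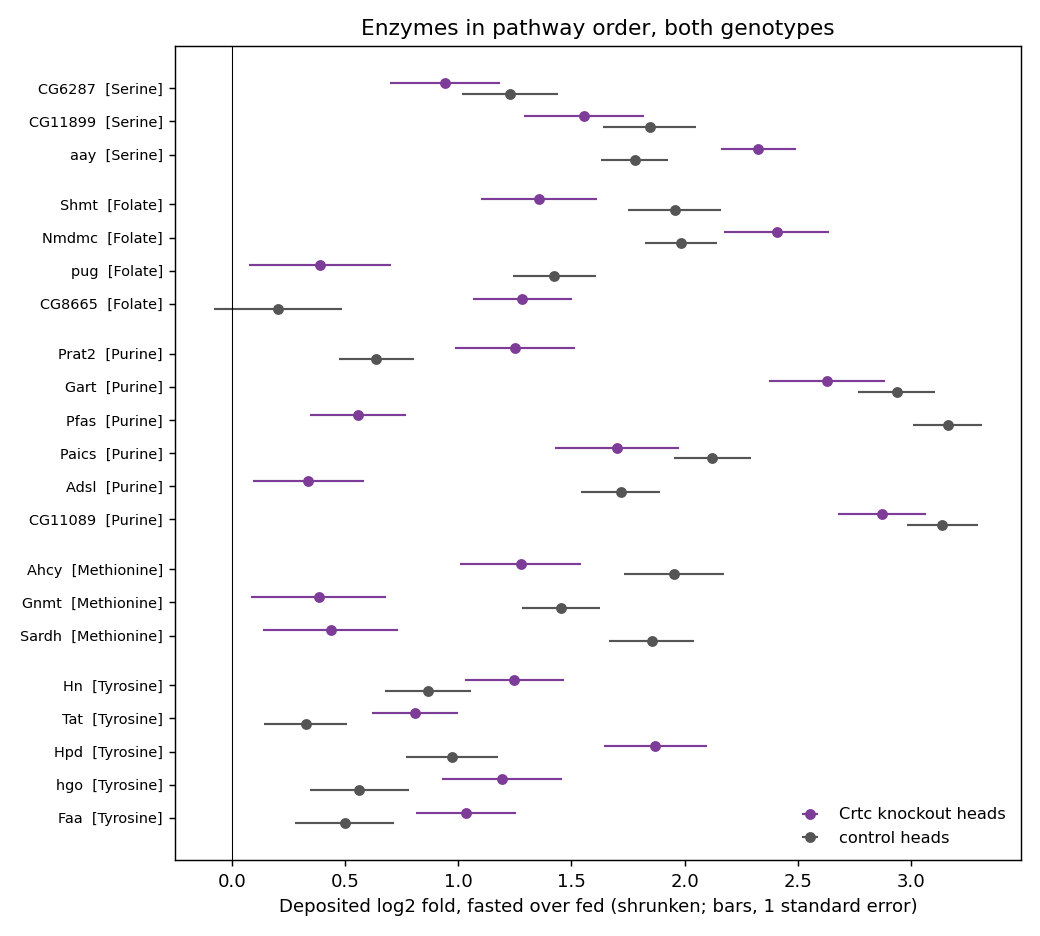
Deposited log2 folds (fasted over fed, horizontal axis, bars of 1 standard error) of enzymes in pathway order, in Crtc knockout heads (purple, upper point) and control heads (grey, lower point). Pfas at 0.56 and Adsl at 0.34 in knockout heads stand apart from 3.16 and 1.72 in control heads, while the 5 tyrosine degradation enzymes lie further right in knockout heads by 0.38 to 0.90, none past the threshold of the difference.

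Amino acid breakdown genes rose too, with 13 of 25 tested up, 0 down and a median of 0.49, beside 2.76% risen over all genes tested. Phenylalanine and tyrosine degradation rose at 5 steps: Hn (phenylalanine hydroxylase), Tat (tyrosine aminotransferase), Hpd (hydroxyphenylpyruvate dioxygenase), hgo (homogentisate dioxygenase) and Faa (fumarylacetoacetase). Hpd had 1311 in fasted and 284 in fed knockout heads, with a fold of 1.87 ± 0.23 per the authors' deposited table (adjusted p = 4.41e-14). The other 4 had folds of 0.81 to 1.25 per the authors' deposited table. The 5 differences from the control response were 0.38 to 0.90 on the log2 scale, none past the threshold. The glutamine synthetase gene Gs1 rose, with 1999 in fasted and 779 in fed heads. The annotated Gs1 overlaps ND-15 on the same strand, which was not called, at -0.06 per the authors' deposited table. Branched-chain steps rose in part, with Bcat, CG6638 (isovaleryl-CoA dehydrogenase) and Mccc2 up and BckdhA, BckdhB and Mccc1 not called, at -0.21 to 0.10 per the authors' deposited table. Of 18 amino acid transporter genes, 2 rose, path and CG7888, by 0.92 ± 0.18 and 0.74 ± 0.20 per the authors' deposited table (adjusted p = 3.04e-05 and 0.00729). The other transporters were not called, the list's median was -0.10 and 5 of the 18 folds were above 0.

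Nutrient signalling genes split. Thor, the fly's 4E-BP translation inhibitor and a FOXO target, had 2375 in fasted and 422 in fed knockout heads, with a fold of 2.30 ± 0.17 per the authors' deposited table (adjusted p = 7.04e-40). Sesn, the sestrin that restrains TOR, had 1024 in fasted and 531 in fed heads. The other 22 of 24 tested members of the insulin, FOXO and TOR list were not called, with folds of -0.42 to 0.71, among them foxo at 0.10 ± 0.18 and Akt at 0.21 ± 0.22 per the authors' deposited table (adjusted p = 0.998 and 0.982). Of the 28 names in this list, InR, S6k, Tor and Mio were not matched and are not analysed here. Among 15 secreted growth signals tested, 2 rose and 2 fell. Ilp6, the insulin-like peptide of the fat body, had 225 in fasted and 92.2 in fed heads, a fold of 1.06 ± 0.24 per the authors' deposited table (adjusted p = 0.00065), and the growth-blocking peptide gene Gbp2 also rose. Ilp5, an insulin-like peptide of brain neurosecretory cells, had 9.57 in fasted and 40.6 in fed heads, a fold of -1.32 ± 0.30 per the authors' deposited table (adjusted p = 0.000882). Its neighbours in the same cells, Ilp2 and Ilp3, were not called, at -0.56 ± 0.20 and -0.67 ± 0.27 per the authors' deposited table (adjusted p = 0.137 and 0.239). In the amino acid and unfolded protein stress list, 4 of 11 rose: Thor, trbl, Sesn and Xbp1. The regulators crc (the fly's ATF4), Gcn2 and PEK were not called, at -0.11 to 0.04 per the authors' deposited table. The autophagy list had 3 of 20 up, Atg18b, Atg9 and ref(2)P, at 0.66 to 0.76 per the authors' deposited table. None of 17 CREB and cAMP pathway genes was called, with folds of -0.46 to 0.60, and none of 8 activity-regulated genes, with folds of -0.61 to 0.17. An unadjusted p under 0.05 was reached by 2 genes of each list. With 3.26% called over all genes tested, lists of this size would hold few calls at that share.

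Bomanins are short secreted peptides of the Toll response, and 5 of 12 rose, 0 fell and 7 were not called, with a median of 0.82 and all 12 folds above 0. BomT2 had 403 in fasted and 70.9 in fed knockout heads, with a fold of 1.97 ± 0.26 per the authors' deposited table (adjusted p = 5.79e-12). BomS2, BomS3, BomS1 and BomBc2 had folds of 1.44, 1.24, 1.18 and 1.02 per the authors' deposited table. The control heads' median for these 12 genes was -0.23. The difference, knockout minus control, passed the threshold for 6 of 11 Bomanins tested and was positive in each, up to 2.10 ± 0.34 for BomT2 (adjusted p = 8.35e-07). Bomanin genes are close copies of one another, so reads may be shared among them. Of the 15 other antimicrobial peptide genes that were matched and tested, 0 rose, 3 fell and 12 were not called, with a median of -0.42. Over all genes tested, 2.76% rose and 0.498% fell. The antimicrobial list is incomplete: 1 of its 20 names, Drs, was not matched and is not analysed here. Identifiers without a symbol could be placed in no list. Among them is FBgn0010381, which rose by 3.89 ± 0.22 per the authors' deposited table. Whether FBgn0010381 belongs among the antimicrobial peptide genes was not determined. The count of 0 rises therefore covers the matched genes alone and says nothing about Drs. CecA1, a cecropin, was at 3.61 in fasted and 20.8 in fed heads, a fold of -1.35 ± 0.31 per the authors' deposited table (adjusted p = 0.00105), and CecA2 and Drsl4 fell by 1.16 and 0.96 per the authors' deposited table. The short peptidoglycan recognition protein gene PGRP-SD fell to 28.5 in fasted heads, against 76.1 in fed heads, and the stress peptide gene TotC fell to 32.4, against 77.5.

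Some detoxification genes rose and none of those tested fell, beside 2.76% risen and 0.498% fallen over all genes tested. Of 75 cytochrome P450 genes tested, 10 rose and 0 fell, and after Cyp4e3 the largest folds were those of Cyp6a8, Cyp4e2, Cyp6g1 and Cyp6w1, at 1.97, 1.39, 1.25 and 1.21 per the authors' deposited table. Glutathione transferases had 5 of 29 up and 0 down. GstE3 had 291 in fasted and 108 in fed knockout heads, and its response exceeded that of control heads by 1.44 ± 0.31 (adjusted p = 0.000988). UDP-glycosyltransferases had 2 of 20 up, Ugt35C1 and Ugt49B1, and 0 down. The antioxidant list had 3 of 15 up: the peroxiredoxin gene Prx6b, the catalase gene Cat, with 1154 in fasted and 590 in fed heads, and Keap1, a sensor of oxidative stress. Of 16 heat shock genes, Hsp26 and Hsp68 rose, by 1.38 ± 0.29 and 1.21 ± 0.21 per the authors' deposited table (adjusted p = 0.000139 and 7.29e-07). Jheh1 and Jheh2, epoxide hydrolases that break down juvenile hormone, rose to 698 and 631 in fasted heads, against 187 and 324 in fed heads.

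**Figure D4:**
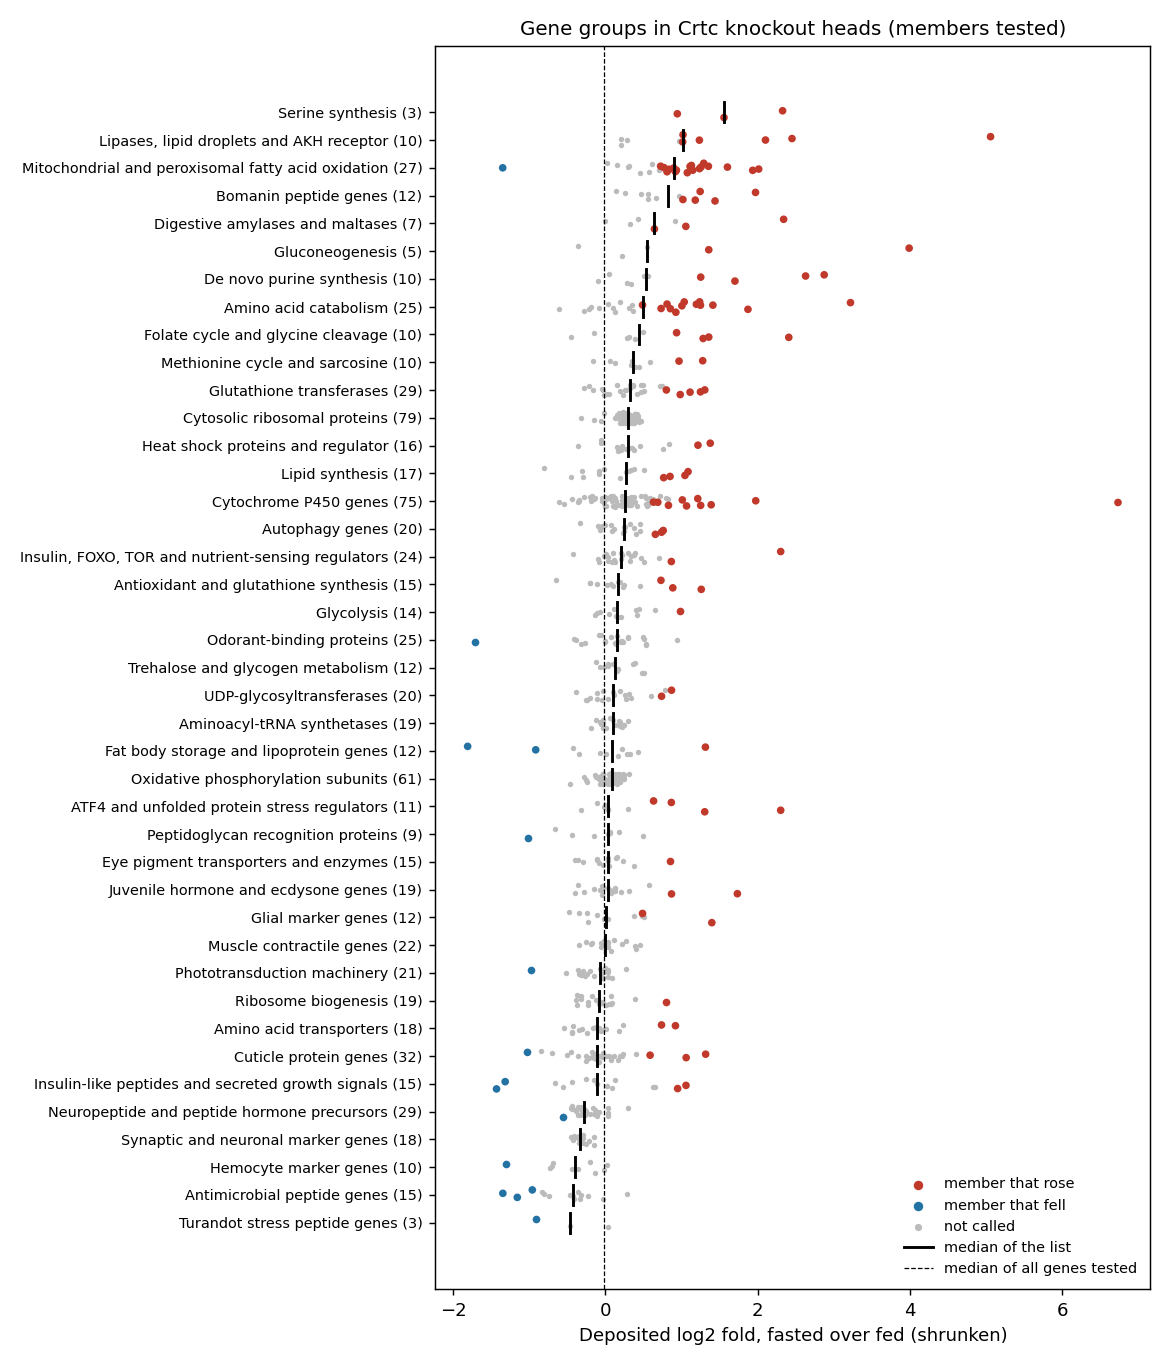
Deposited log2 folds (fasted over fed, horizontal axis) of the tested members of gene lists in Crtc knockout heads, ordered by list median; red points rose, blue points fell, grey points were not called, black ticks are list medians, the dashed line is the median of all genes tested (-0.02) and the number tested stands in brackets. Serine synthesis, lipases and fatty acid oxidation have the highest medians, at 1.56, 1.02 and 0.90, and antimicrobial and Turandot peptide genes the lowest, at -0.42 and -0.47. The antimicrobial list lacks Drs, a name that was not matched. Identifiers without a symbol, the strongly risen FBgn0010381 among them, are in no list.

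Markers of the tissues in a head were read beside these groups. All 18 neuronal markers had folds below 0, between -0.45 and -0.15, with a median of -0.34, none called and 0 at an unadjusted p under 0.05. Their summed implied level was 49192 in fasted and 63514 in fed knockout heads. Of 29 neuropeptide precursor genes, 1 fell, Dsk, and 4 had folds above 0. Cytosolic ribosomal protein genes lay the other way, with 75 of 79 above 0, a median of 0.30, none called and 2 at an unadjusted p under 0.05. Fat body genes were mixed, with fon (a clotting factor) up and Lsp2 and Lsp1beta down, and a summed level of 22866 in fasted and 24619 in fed heads. Hemocyte markers summed to 1241 in fasted and 1745 in fed heads, and Hml fell to 28.4 in fasted heads, against 90.8 in fed heads. Glial markers summed to 9116 in fasted and 7855 in fed heads. Among them the astrocyte gene alrm, whose annotation overlaps Fur1 on the same strand, rose to 242 in fasted heads, against 77.9 in fed heads, while the pan-glial gene repo was not called, at -0.23 ± 0.21 per the authors' deposited table (adjusted p = 0.943). Muscle genes had a median of -0.01, with 0 of 22 called and 3 at an unadjusted p under 0.05. Of 21 phototransduction genes, 1 fell, the carotenoid oxygenase gene ninaB, which overlaps the risen Adgf-D on the opposite strand, and none of 7 rhodopsin genes was called, with 1 at an unadjusted p under 0.05. Their part in the results on fat, amino acid and immune genes was not tested. Nothing was called among 14 clock genes (-0.62 to 0.48), 61 oxidative phosphorylation subunits (-0.46 to 0.31), 70 mitochondrial ribosomal proteins (-0.32 to 0.37), 35 proteasome subunits (-0.60 to 0.54), 19 aminoacyl-tRNA synthetases (-0.18 to 0.30) or 16 V-ATPase subunits (-0.41 to 0.31). Of these, 4 clock genes, 3 proteasome subunits and 1 V-ATPase subunit had an unadjusted p under 0.05, and 0 of the others did. Over all genes tested 3.26% were called, so the smaller lists would hold few calls at that share. Mitochondrially encoded transcripts were all listed at 0 and give no check of RNA quality.

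Most called genes, 205 of 327, belonged to no list. The following were chosen after their values were seen. Around fatty acid transport, CROT, a carnitine acyltransferase gene, had 546 in fasted and 107 in fed knockout heads, with a fold of 2.10 ± 0.20 per the authors' deposited table (adjusted p = 4.33e-24). Jabba, which binds histones to lipid droplets, had 1516 in fasted and 326 in fed heads, a fold of 1.83 ± 0.24 per the authors' deposited table (adjusted p = 4.2e-12). The peroxisomal genes Abcd3, Mfe2 and Hsdl2, outside the list, had folds of 0.71, 0.74 and 1.25 per the authors' deposited table. Each of 3 dehydrogenase genes also rose: Men (malic enzyme) had 5418, Idh (isocitrate dehydrogenase) had 3137 and Mdh1 (malate dehydrogenase) had 2563 in fasted heads, against 2237, 1089 and 1107 in fed heads. The pyruvate dehydrogenase kinase gene Pdk had 1158 in fasted and 569 in fed heads. Achl had 877 in fasted and 185 in fed heads, and cu (curled, the fly's nocturnin) had 943 in fasted and 188 in fed heads. Among falls, Usp8, a deubiquitinase, had 379 in fasted and 819 in fed heads, a fold of -1.02 ± 0.18 per the authors' deposited table (adjusted p = 7.67e-07), and Listericin, an antibacterial peptide gene, had 151 in fasted and 365 in fed heads.

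Called genes lay together at 4 places in the Ensembl annotation of BDGP6.54, each with at least 3 genes of one direction within 20000 bases of the next. All 4 held risen genes, beside 277 rises among all 327 called genes. On chromosome arm 2R, Prx6c, CG11825, CG33474, Prx6b and CG12896 lie between 10418718 and 10427915, where Prx6c had 158 in fasted and 34.7 in fed knockout heads. Cyp6a22, Cyp6a17 and Cyp6a8 lie on 2R between 14871366 and 14889010. The 5 risen Bomanin genes, GstE1 and GstE3 lie on 2R between 18383949 and 18401467. On 3L, Hpd, atk, mag and Tdh lie between 20438166 and 20469592, and Tdh, a threonine dehydrogenase gene, had 476 in fasted and 108 in fed heads. The annotated CG11825 and CG33474 overlap. Chromosome 4 had 0 called genes of 95 tested. Over all genes tested 3.26% were called, so a group of this size would hold few calls at that share.

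Set against control heads, the knockout response overlapped in part. Of 271 genes that rose in knockout heads and had an adjusted p in control heads, 123 also rose there and 2 fell, BomS1 and BomBc2. Of 47 genes that fell in knockout heads, 29 fell in control heads as well. Over all genes tested in control heads, 2.19% rose and 1.65% fell. Among the genes that rose in knockout heads, the difference was positive for 33 of 265 tested and negative for 0. Over all 8474 genes tested, 0.696% had a positive and 0.106% a negative difference. The 265 genes were picked by the knockout fold, which enters the difference. Positive differences were therefore favoured in advance, and the split is no independent result. With a t distribution of 6 degrees of freedom the test of the difference made 0 calls (190 genes had an unadjusted p under 0.05, and the smallest adjusted p was 0.108).

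The differences were of several kinds, and those of AkhR, Jabba, Achl, Gbs-70E, sug and Lsd-1 were chosen after their values were seen. Cyp4e3 rose in both genotypes, with folds of 6.73 ± 0.19 in knockout and 3.59 ± 0.19 in control heads per the authors' deposited tables. FBgn0010381 and CG43402 rose in knockout heads and had folds of -0.18 ± 0.27 and 0.11 ± 0.28 in control heads per the authors' deposited table (adjusted p = 0.998 for both). AkhR, Ilp6, Jabba, Achl and alrm had control folds of -0.26, -0.24, -0.08, 0.06 and -0.07 per the authors' deposited table, and their differences of 1.27, 1.29, 1.91, 1.95 and 1.47 passed the threshold. Thor, Jheh1 and Hsp68 also responded more in knockout heads, with differences of 0.92 ± 0.24, 0.98 ± 0.25 and 1.22 ± 0.31 (adjusted p = 0.0176, 0.0141 and 0.0136). Lsd-1 was at an uncalled 0.96 in knockout heads and fell by 0.85 in control heads per the authors' deposited tables, a difference of 1.81 ± 0.39 (adjusted p = 0.00107). For CCHa2, a nutrient-responsive peptide hormone of the fat body, it was the control response that was called: the fold was 0.65 ± 0.24 in knockout heads (adjusted p = 0.162) and -1.39 ± 0.18 in control heads (adjusted p = 1.29e-12) per the authors' deposited tables. Likewise Gbs-70E, a glycogen-targeting phosphatase subunit, was at -0.12 ± 0.20 in knockout and -1.92 in control heads per the authors' deposited tables, with a difference of 1.80 ± 0.28 (adjusted p = 1.67e-07). The sugar-responsive regulator gene sug was at 0.01 ± 0.23 in knockout and -1.62 in control heads per the authors' deposited tables, with a difference of 1.63 ± 0.32 (adjusted p = 0.000171). Direct comparisons of the genotypes, which use the same libraries as the fasting comparisons, give the levels within each feeding state. They called 3.43% of genes higher and 1.97% lower in knockout heads when fasted, and 2.27% higher and 2.49% lower when fed, per the authors' deposited tables. Pfas was at -2.74 in fasted and -0.15 in fed heads (knockout over control, adjusted p = 7.04e-45 and 1) per the authors' deposited tables. Cyp4e3 was at 3.60 in fasted and 0.43 in fed heads (adjusted p = 8.09e-82 and 0.504) per the authors' deposited tables. Pepck2 was higher in knockout heads in both states, at 4.11 fasted and 2.97 fed per the authors' deposited tables (adjusted p = 6.02e-93 and 2.06e-29). Thor was at 0.20 in fasted and -0.67 in fed heads (adjusted p = 0.977 and 0.00133) per the authors' deposited tables. Its larger fold thus went with a lower fed level, and its fasted level was not called different. FBgn0010381 was at 2.32 in fasted and -1.05 in fed heads (adjusted p = 3.59e-26 and 0.0075) per the authors' deposited tables.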

How the data were processed

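Polyadenylated RNA of whole adult heads was sequenced, and the 2 fasted and 3 fed Crtc knockout libraries were compared by the authors with DESeq2, per the file headers and the values; values per library are not used here. Tools and builds named in the submitters' processing notes are DESeq2, Cuffdiff, STAR, TopHat2, dm6 and dm3, without roles or versions; the counting program, its strand setting and the annotation are not given in the sources used here. The deposited base mean is a normalized signal, the mean of counts over the libraries of a comparison after scaling by size factors. The deposited log2 fold and its standard error were shrunken by the authors' model, as the form of the standard errors shows, and the deposited Wald score is their ratio. The deposited p-value is that of the Wald score, and the authors' adjusted p-value follows Benjamini-Hochberg. Read depth per library is unknown from these tables, so no counting interval is given and precision rests on the deposited standard errors.

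From these values were computed, with Python 3.11.15, pandas 2.3.3, numpy 2.4.6 and scipy 1.17.1: calls at an adjusted p under 0.05; mean levels of fasted and fed heads from base mean and fold with the shrinkage taken out, for base means of at least 10; and the range of each level that the base means of the 4 deposited tables allow. Taking the shrinkage out for the levels assumed a normal prior of width 0.6297, set from the largest standard error (0.3149). Of the possible solutions, the one with the weaker shrinkage was taken. This moved the fold of mag from 2.45 to 4.74. The 4 tables share their 10 libraries: over 6238 genes the base means obeyed the identity this implies to within 0.1337%. The difference between knockout and control responses was tested by the difference of folds over its standard error, a two-sided normal test, Benjamini-Hochberg adjusted over the 8474 genes whose base mean reached 10 in each table. Named genes are the 15 largest rises and falls, up to 5 called members of each list, members given as counter-examples, and the 6 largest differences each way; further called members of a list, called neighbours and further differences are named beyond this rule and were chosen after their values were seen. Genes and lists were chosen with earlier results of these data known, so no list's count is independent support. Symbols were matched for 17253 of 17559 identifiers; some list names had no match. Positions and exon lengths are from Ensembl release 115 (BDGP6.54). The difference test and the removal of shrinkage were tried on simulated data. The first used normal errors of the deposited size, and the second a prior width that was known. How well the width can be set from the largest standard error was not tested.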

Additional observations from a re-analysis of the deposited data

Results flagged for a closer look

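For 12 genes the fasting response of knockout heads differed from that of control heads by the test of the difference, the 6 largest each way. Each value is the log2 fold in knockout heads minus that in control heads, by a two-sided normal test adjusted with Benjamini-Hochberg. The positive ones were FBgn0010381 at 4.06, Cyp4e3 at 3.14, CG43402 at 2.69, fit at 2.15, BomT2 at 2.10 and CCHa2 at 2.03. In the authors' deposited tables fit fell in both genotypes, by 1.43 ± 0.27 in knockout and 3.58 ± 0.27 in control heads, so its difference is a smaller fall (adjusted p = 1e-05).

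The negative ones were Pfas at -2.60, Lst at -1.85, ImpL2 at -1.58, Obp56a at -1.50, Sardh at -1.42 and Adsl at -1.38. Lst encodes limostatin, a peptide that lowers insulin secretion, and it was at 186 normalized counts in fasted and 166 in fed knockout heads. Its fold was 0.13 ± 0.27 in knockout and 1.98 in control heads per the authors' deposited tables (adjusted p of the difference = 2.04e-05). ImpL2 encodes a secreted protein that binds insulin-like peptides, and it was at 163 in fasted and 232 in fed knockout heads. Its fold was -0.45 ± 0.21 in knockout and 1.13 in control heads per the authors' deposited tables (adjusted p of the difference = 1.29e-05). Obp56a fell in knockout heads and was at -0.21 ± 0.29 in control heads per the authors' deposited table (adjusted p of the difference = 0.0433). That call was lost without the filter on low counts (adjusted p = 0.057), with the shrinkage taken out (adjusted p = 0.169) and at a threshold of 0.01. Sardh lost its call with the shrinkage taken out (adjusted p = 0.232). Which feeding library or set carries any of these differences was not tested, since no value per library was used.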

How the results depend on the processing

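Of the 277 rises, 155 reached an absolute log2 fold of 1, and 184 did with the shrinkage taken out. Of the 50 falls, 26 had such a fold, and 27 passed a threshold of 0.01. With a t distribution in place of the normal one, 0 rises and 0 falls were called (3 degrees of freedom), as were 0 positive and 0 negative differences (6 degrees of freedom), against 59 and 9. Over the 30 leading genes the median absolute log2 ratio of the derived levels was 2.45 with the deposited folds and 3.02 with the shrinkage taken out; the printed levels have the shrinkage taken out, although deposited folds were planned for them, since deposited folds lay outside the range that base means allow for more genes. Of the 138 called genes that the text names, 112 passed a threshold of 0.01 and 135 passed after adjustment over every gene with a p; Drsl4, Keap1 and Lsp1beta did not pass the second. Of 38 named genes whose difference passed, 31 did at a threshold of 0.01, 36 without the filter on low counts, and 35 were tested and passed where base means reached 50. With the shrinkage taken out 34 passed, and Obp56a, Pepck2, Prx6c and Sardh did not (adjusted p = 0.169, 1, 0.205 and 0.232). No paired analysis was possible because no value per library was used, and leaving out each library in turn could not be run for the same reason. Read depth per library is unknown, so what depth limits was not tested.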

Other observations

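Calls among cuticle genes went both ways in fasted knockout heads: 3 of 32 tested rose and 1 fell. Over all genes tested, 2.76% rose and 0.498% fell. A single call in a list named here is therefore a result about that gene and not about its list. The cuticle protein gene Cpr67B had 936 normalized counts in fasted and 343 in fed heads, a fold of 1.32 ± 0.18 per the authors' deposited table (adjusted p = 8.75e-11). Cpr11B and Cpr72Ec had folds of 1.06 and 0.59, and TwdlT one of -1.02, per the authors' deposited table. In the eye pigment list 1 of 15 rose, v, the tryptophan dioxygenase gene that opens brown pigment synthesis, with 225 in fasted and 108 in fed heads. Of 19 ribosome biogenesis genes 1 rose, Non1, a nucleolar GTPase gene, with 1849 in fasted and 1009 in fed heads. Of 390 long noncoding RNAs tested 1 rose, lncRNA:Irar, with 18.7 in fasted and 4.52 in fed heads.

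None of 14 sex determination and sex-biased genes was called in knockout heads, with folds of -0.47 to 0.27 and 0 at an unadjusted p under 0.05. For 2 of 11 tested, chosen after their values were seen, the difference from control heads was positive. Obp99b was at 0.21 ± 0.29 in knockout and -1.27 in control heads per the authors' deposited tables, a difference of 1.48 ± 0.33 (adjusted p = 0.00163), and sxe2 was at -0.34 ± 0.18 in knockout and -1.43 in control heads per the authors' deposited tables, a difference of 1.09 ± 0.24 (adjusted p = 0.00136). The sex of the flies is not given in the labels, and the part of sex in these values was not tested.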
